A study of Mus musculus with 4 samples.

Results

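The tricarboxylic acid (TCA) cycle, the reactions that refill it and the shuttles that carry NADH electrons into mitochondria were examined in mouse pancreatic beta cells sorted by their CD63 level. A list of 40 genes was taken by gene name from count tables of 31017 gene names, and all 40 were present and passed the filter on low counts. The 4 polyA RNA-seq libraries came from wild-type C57BL/6J male mice, 10 weeks old, whose islets were isolated, cultured overnight, dissociated with trypsin and sorted by flow cytometry. There were 2 libraries of CD63 high and 2 of CD63 low beta cells, which otherwise shared strain, sex, age, tissue and handling. The labels name CD63 as the sorting marker and describe no other gate. They give no source of the replicates (animals, pools or sorts). The p-values therefore set the group difference against a spread between libraries, not against a known spread between animals.

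In beta cells glucose is broken down to pyruvate, most of which enters mitochondria rather than being turned into lactate. There it is oxidised to acetyl-CoA by the pyruvate dehydrogenase complex or carboxylated to oxaloacetate by pyruvate carboxylase, and oxidation in the TCA cycle feeds the ATP production that closes potassium channels and starts insulin release. Cytosolic NADH is reoxidised through the malate-aspartate and glycerol phosphate shuttles, which beta cells use in place of lactate dehydrogenase, and export of citrate and malate supplies cytosolic NADPH and acetyl-CoA.

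Total counts ranged from 29249270 to 35003307 per library, and 1 CPM (counts scaled to a common library total by TMM) stood for 27.7 to 39.0 counts. The transcript of the sorting marker, Cd63, was at 1973 and 2076 CPM in the CD63 high and 1186 and 1120 CPM in the CD63 low libraries. The insulin genes took 48.7 to 56.4% of all counts, and 3 of 10 beta cell markers (Mafa, Slc2a2 and Slc30a8) fell in CD63 high cells, with no marker of that list absent from a group. The summed markers of several other cell types were higher in both CD63 high libraries, though not each marker. The summed level of 9 macrophage markers, of which 8 rose, was 194 and 822 CPM in the CD63 high and 34.0 and 66.6 CPM in the CD63 low libraries, and that of 8 alpha cell markers, of which 2 rose, was 5562 and 5771 against 423 and 565 CPM (sums use total counts). All 3 tested delta cell markers and both gamma cell markers rose, with sums of 465 and 842 against 67.6 and 48.7 CPM and of 2397 and 3890 against 514 and 309 CPM. One of 7 acinar markers (686 and 1061 against 19.3 and 298 CPM) and 1 of 4 tested duct markers (2599 and 1292 against 635 and 747 CPM) rose. No endothelial or stellate cell marker was called, their sums stayed between 0.243 and 4.89 CPM, and the duct marker Cftr and the endothelial marker Cdh5 had no count in any library. Gcg made up most of the alpha cell sum in the CD63 high libraries, and Spp1 most of what the duct sum gained. Slc7a2 of the alpha list (15.3 and 16.8 against 30.7 and 27.8 CPM) and Krt7 of the duct list (509 and 444 against 558 and 551 CPM) were instead lower in the CD63 high libraries without passing the test. In bulk libraries, fewer cells of a type and less RNA per cell cannot be told apart.

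The comparison asked whether the genes of mitochondrial fuel oxidation differ between the sorted groups. None of the 40 genes passed edgeR's quasi-likelihood test at a Benjamini-Hochberg adjusted p under 0.05 in either direction, where 2.79% of all 13241 tested genes passed, 2.50% higher and 0.287% lower in CD63 high cells (331 and 38 genes, and 217 and 72 once the trend with gene length was removed). DESeq2 and limma-voom each called 1 gene, fumarate hydratase (Fh1), higher in CD63 high cells, beside 4.03% and 1.87% of all tested genes. At an unadjusted edgeR p under 0.05 stood 6 genes, with Fh1, Pdk3 and Pdk4 higher and Pdk2, Pcx and Aco1 lower in CD63 high cells, 7.5% in each direction against 8.95% and 5.96% of all tested genes. The shares are thus close to the background in both directions.

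The fold changes of the 40 genes lay close to 1 for most. The median log2 fold change, given below as the log2 ratio of CD63 high over CD63 low, was -0.09, beside -0.01 for all tested genes, and 26 genes (65%) had a value below 0, as did 51.4% of all tested genes. For 31 of the 40 genes the 95% interval of the fold change lay within 2-fold in either direction, as it did for 49.3% of all tested genes. For 12 it lay within 1.5-fold, as it did for 8.87% of all tested genes. Intervals are narrower for genes with more counts, and these shares were not matched for abundance. They therefore do not show that these genes were steadier than others of like level. The 9 genes whose interval reached beyond 2-fold were Fh1, Pdk2, Pdk3, Pdk4, Pcx, Aco1, Me3, Slc25a10 and Slc25a13. CPM values did not overlap between the groups for 21 genes (52.5%), 9 higher and 12 lower in CD63 high cells, against 46.0% of all tested genes, 23.8% and 22.2% in these directions.

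**Figure D1:**
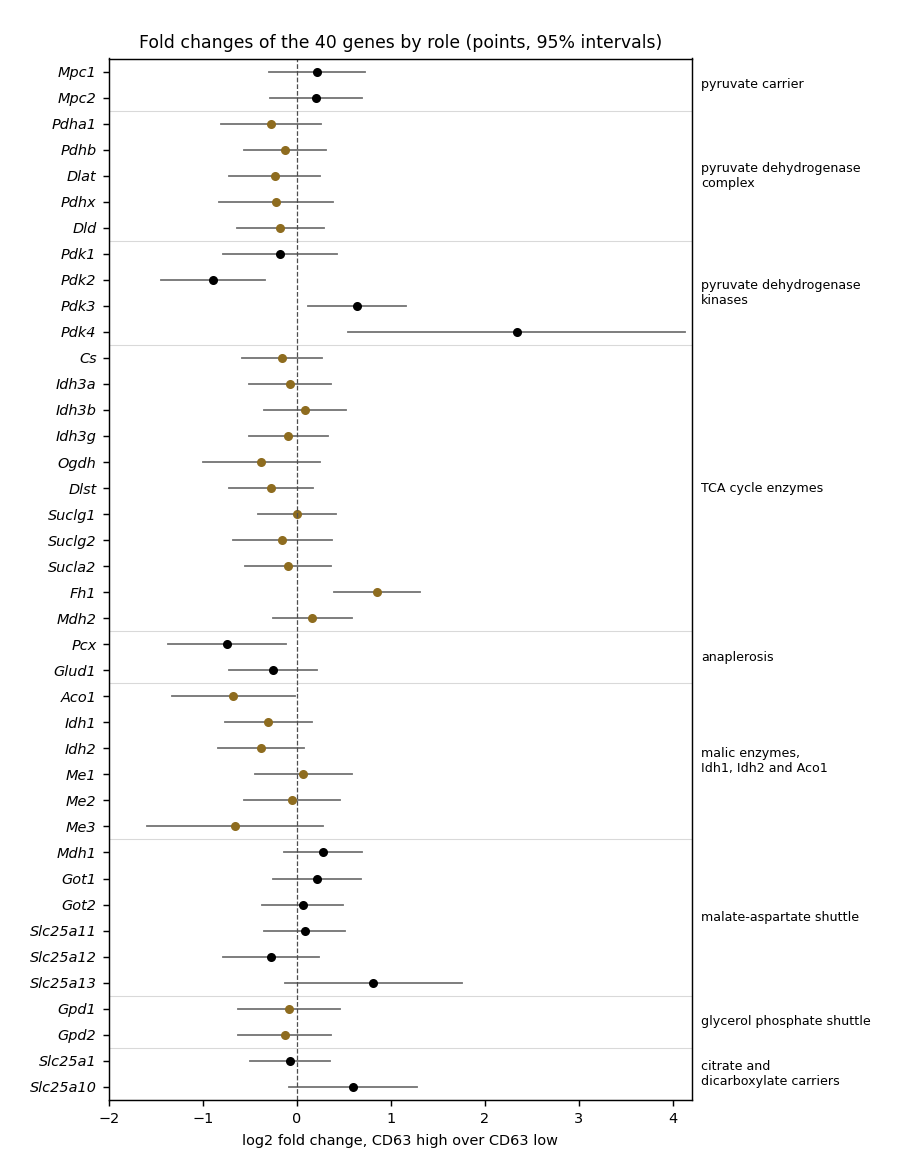
Log2 fold changes (CD63 high over CD63 low, x axis) of the 40 genes from edgeR, in rows grouped by role, with 95% intervals as bars and point colours that only separate neighbouring roles. Most points sit near 0, and the intervals of Fh1, Pdk3 and Pdk4 lie above it and those of Pdk2, Pcx and Aco1 below it, none with an adjusted p under 0.05.

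Levels were compared between genes as TPM, in which counts are divided by exon length and scaled to a common sum. The cytosolic malate dehydrogenase Mdh1 was the most abundant of the 40 genes, at a mean of 259 TPM over the 4 libraries, followed by the citrate carrier Slc25a1 (118 TPM), the mitochondrial malate dehydrogenase Mdh2 (106 TPM) and Fh1 (96.7 TPM). Their order is not firm, since the Slc25a1, Mdh2 and Fh1 ranges overlapped between libraries, at 102 to 150, 91.4 to 115 and 54.4 to 140 TPM. At the low end stood the kinase Pdk1 (1.99 TPM), the aspartate-glutamate carrier Slc25a13 (1.34 TPM), the kinase Pdk4 (0.608 TPM) and the malic enzyme Me3 (0.363 TPM). The exon length merges all annotated transcripts of a gene name, so a long isoform that is not expressed lowers the TPM of its gene. TPM is a share of a library, so it also depends on what insulin takes. The 40 genes summed to 1366 and 1237 TPM in the CD63 high libraries, where insulin took 49.0% and 52.2% of counts. In the CD63 low libraries they summed to 1104 and 1605 TPM, at insulin shares of 56.4% and 48.7%. CD63 high replicate 1 and CD63 low replicate 2 were thus close in insulin share but not in this sum, and the reason was not tested.

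**Figure D2:**
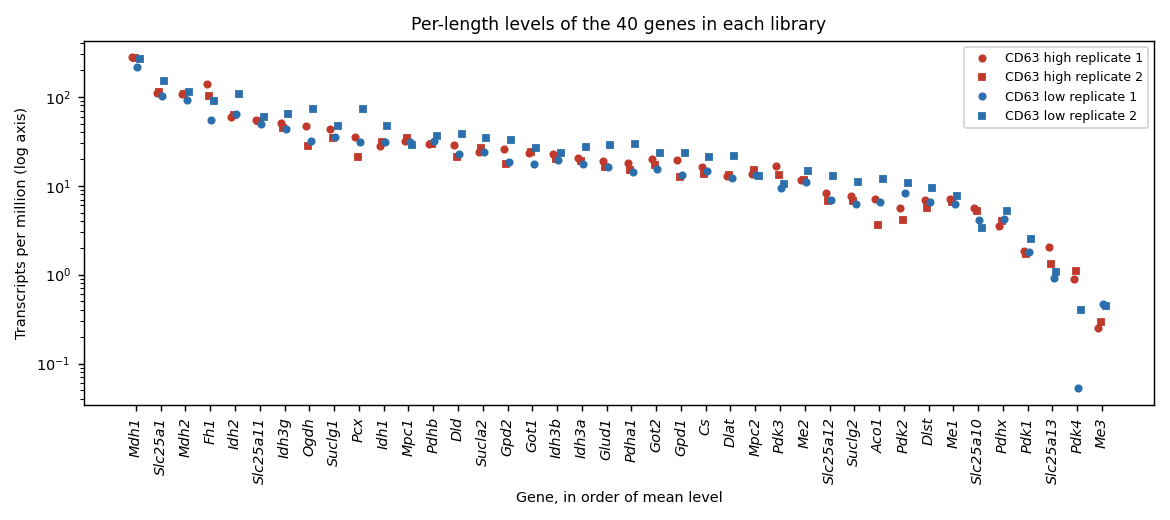
Per-length levels (TPM, log axis) of the 40 genes in each of the 4 libraries, in order of the mean, with red for CD63 high, blue for CD63 low, circles for replicate 1 and squares for replicate 2. Mdh1 leads at 259 TPM on average and Me3 is last at 0.363 TPM, and CD63 low replicate 2 is the highest library for many genes in between.

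Pyruvate enters the mitochondrial matrix through a carrier made of the Mpc1 and Mpc2 proteins. Mpc1 stood at 40.9 and 49.5 CPM in the CD63 high and 45.4 and 32.4 CPM in the CD63 low libraries, so that the groups overlapped (a log2 ratio of 0.22, SE 0.23, edgeR adjusted p 0.744). Mpc2 differed by 0.20 (SE 0.22) and also overlapped. Of the summed per-length level of both genes Mpc1 took 69.2 to 70.2% in every library, the narrowest range of the isozyme and subunit groups compared here.

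The 5 genes of the pyruvate dehydrogenase complex all had log2 fold changes below 0, none past the test. They are Pdha1 and Pdhb for the decarboxylating subunits, Dlat for the acetyltransferase, Pdhx for the binding protein and Dld for the lipoamide dehydrogenase that the 2-oxoglutarate complex also uses. Pdhb, the most abundant per length, was at 68.7 and 78.3 CPM in the CD63 high and 85.8 and 74.8 CPM in the CD63 low libraries, and its groups overlapped (a log2 ratio of -0.13, SE 0.20). The other 4 genes lay at -0.28 to -0.18, with edgeR adjusted p from 0.672 to 0.789, and only Pdhx had groups that did not overlap. Without CD63 low replicate 2, Pdha1, Dlat and Dld crossed to values just above 0. About 16.1% of the exon bases of Pdha1 are shared with Map3k15, and counting without strand left out reads there.

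The pyruvate dehydrogenase kinases, which phosphorylate and switch off the complex, had log2 fold changes on both sides of 0, none past the test. Pdk2 (chromosome 11, 95026258 to 95041354, mm10) stood at 10.7 and 9.03 CPM in the CD63 high and 18.4 and 18.2 CPM in the CD63 low libraries. The groups did not overlap, and the CD63 low libraries differed from each other by far less than from either CD63 high library. Its level was 1.86-fold higher in CD63 low cells (a log2 ratio of -0.89, 95% interval -1.45 to -0.34), and its adjusted p from edgeR, 0.0949, was above the threshold. Pdk2 lay below 0 in each of the 15 alternative analyses, at -1.04 to -0.78. With groups that did not overlap, a change of sign was hardly possible in these refits of the same libraries.

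Pdk3 (chromosome X, 93764607 to 93832201) lay on the other side of 0. It stood at 25.8 and 23.2 CPM in the CD63 high and 17.3 and 14.3 CPM in the CD63 low libraries, without overlap (a log2 ratio of 0.64, SE 0.23, edgeR adjusted p 0.215). Pdk4 (chromosome 6, 5483351 to 5496309), the member known to be induced by fasting and fatty acids, was scarce. It had 60 and 73 counts in the CD63 high and 4 and 29 counts in the CD63 low libraries (1.91 and 2.64 against 0.132 and 0.744 CPM), a log2 fold change of 2.34 with a wide interval of 0.54 to 4.13 and an edgeR adjusted p of 0.186. Without CD63 low replicate 2 its value was 4.08, and without CD63 low replicate 1 it was 1.6. Pdk1, known as a target of the hypoxia response, stood at 8.84 and 9.28 against 9.95 and 10.6 CPM (a log2 ratio of -0.18, SE 0.27).

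The share of each kinase in the transcripts of the family was also computed. Of the summed per-length level, Pdk2 took 22.4% and 20.6% in the CD63 high and 42.0% and 44.7% in the CD63 low libraries. Pdk3 took 66.6% and 65.4% against 48.5% and 43.1%. Pdk4 took 3.60% and 5.42% against 0.270% and 1.64%. Pdk1 took 7.49% and 8.61% against 9.21% and 10.6%. The shares, which sum to a whole and so are not independent, did not overlap between the groups for any of the 4 genes, as CPM did not for 46.0% of all tested genes. They were not tested, since with 2 libraries a group a two-sided exact permutation test cannot go below 0.333. The 4 genes together averaged 22.5 TPM in CD63 high and 21.9 TPM in CD63 low cells. The macrophage and islet hormone markers given above were higher in the same CD63 high libraries, and their part in these shares was not tested.

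**Figure D3:**
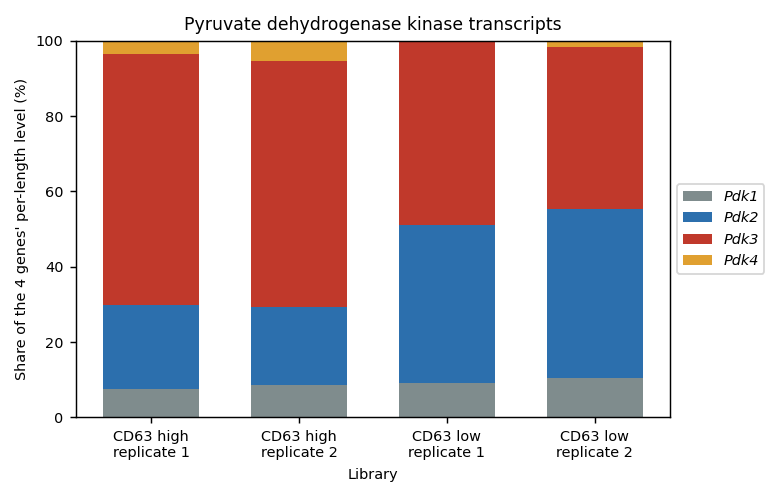
Share (%) of each of the 4 pyruvate dehydrogenase kinase genes in their summed per-length level, as stacked bars for each library. Pdk2 makes up 20.6 to 22.4% in the CD63 high and 42.0 to 44.7% in the CD63 low libraries, and Pdk3 and Pdk4 take the larger part in CD63 high.

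The enzymes of the cycle itself numbered 11 genes, and apart from Fh1 their log2 fold changes lay between -0.38 and 0.16. Citrate synthase (Cs), the entry enzyme, was at 57.7 and 54.6 CPM in the CD63 high and 59.9 and 65.2 CPM in the CD63 low libraries (a log2 ratio of -0.16, SE 0.19), with an interval of -0.58 to 0.27. The 3 subunits of NAD-dependent isocitrate dehydrogenase, Idh3a, Idh3b and Idh3g, were at -0.08, 0.08 and -0.09 (SE 0.19 to 0.20). Idh3g, a regulatory subunit, made up 53.2 to 56.1% of their summed per-length level in the 4 libraries.

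The 2-oxoglutarate dehydrogenase subunit Ogdh had the largest spread among these genes. It stood at 155 and 104 CPM in the CD63 high and 124 and 213 CPM in the CD63 low libraries, so that the replicates lay further apart than the group means (a log2 ratio of -0.38, SE 0.28). Dlst, the succinyltransferase of the same complex, was at -0.28 (SE 0.20). Succinyl-CoA ligase had fold changes near 1: Suclg1, the shared subunit, stood at 124 and 110 against 116 and 117 CPM, with a 95% interval of the log2 fold change from -0.42 to 0.42. Of its alternative partners, the ATP-forming Sucla2 took 75.7 to 79.9% of the per-length level and the GTP-forming Suclg2 20.1 to 24.3%, and their log2 fold changes were -0.10 and -0.16.

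Fh1 (chromosome 1, 175600374 to 175625635, mm10), which turns fumarate into malate, had the smallest p of the 40 genes. It stood at 289 and 241 CPM in the CD63 high and 130 and 164 CPM in the CD63 low libraries. The groups did not overlap, and both CD63 high values lay above both CD63 low values by more than the distance between replicates. The level was 1.80-fold higher in CD63 high cells (a log2 ratio of 0.85, SE 0.21, 95% interval 0.39 to 1.31), with an edgeR adjusted p of 0.0591. DESeq2 gave an adjusted p of 0.00214 and limma-voom 0.0496, and in the 15 alternative analyses the log2 fold change was between 0.69 and 1.04 and the adjusted p between 0.00214 and 0.272. The neighbouring enzyme Mdh2, which oxidises malate, stood at 235 and 267 against 230 and 218 CPM (a log2 ratio of 0.16, SE 0.19, edgeR adjusted p 0.770). The summed macrophage, islet hormone cell, acinar and duct markers given above were higher in the same libraries, and their part in the Fh1 values was not tested.

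Of the anaplerotic enzymes, pyruvate carboxylase (Pcx, chromosome 19, 4510472 to 4621752), which makes oxaloacetate from pyruvate and is abundant in beta cells, was lower in CD63 high cells on average without passing the test. It stood at 100 and 67.6 CPM in the CD63 high and 103 and 179 CPM in the CD63 low libraries. The groups did not overlap, but CD63 high replicate 1 and CD63 low replicate 1 were nearly equal. The log2 fold change was -0.75 (SE 0.28, edgeR adjusted p 0.237). Its size moved with each library left out. It was -0.27 (adjusted p 0.814) without CD63 low replicate 2 and -0.49 (adjusted p 0.7) without CD63 high replicate 2. It was -1.09 (adjusted p 0.00366) without CD63 low replicate 1 and -1.06 (adjusted p 0.0451) without CD63 high replicate 1. In each of these fits 1 group is a single library, which is assumed to vary like the 2 libraries of the other group. Glutamate dehydrogenase (Glud1), which brings glutamate into the cycle, was at 48.2 and 47.3 against 48.6 and 65.5 CPM (a log2 ratio of -0.26, SE 0.21).

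The NADP-dependent isocitrate dehydrogenases and malic enzymes, which yield NADPH in cytosol or mitochondria, included none past the test. Idh2, the mitochondrial isocitrate dehydrogenase, stood at 93.9 and 111 CPM in the CD63 high and 118 and 149 CPM in the CD63 low libraries, without overlap (a log2 ratio of -0.39, SE 0.21, edgeR adjusted p 0.434). Its cytosolic relative Idh1 was at -0.31 (SE 0.21). The ratio between them hardly moved, as Idh2 took 66.5 to 69.5% of their per-length level in the 4 libraries. Me2, the mitochondrial NAD-linked malic enzyme, made up 61.1 to 64.4% of malic enzyme transcripts per length and the cytosolic Me1 33.6 to 37.6%. Both lay near 0, at log2 fold changes of -0.05 (SE 0.23) and 0.07 (SE 0.23). Me3, the mitochondrial NADP-linked form, was rare, with 71 and 82 counts in the CD63 high and 146 and 134 in the CD63 low libraries (2.27 and 2.96 against 4.81 and 3.44 CPM, log2 fold change -0.66, SE 0.42).

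Aco1 is the cytosolic aconitase, which also acts as an iron-regulated RNA-binding protein. It stood at 19.3 and 11.3 CPM in the CD63 high and 20.7 and 28.4 CPM in the CD63 low libraries, without overlap but with replicates nearly as far apart as the groups (a log2 ratio of -0.68, SE 0.30, edgeR adjusted p 0.317). Its value moved to -0.35 when CD63 high replicate 2 was left out and to -1.12 when replicate 1 of that group was.

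**Figure D4:**
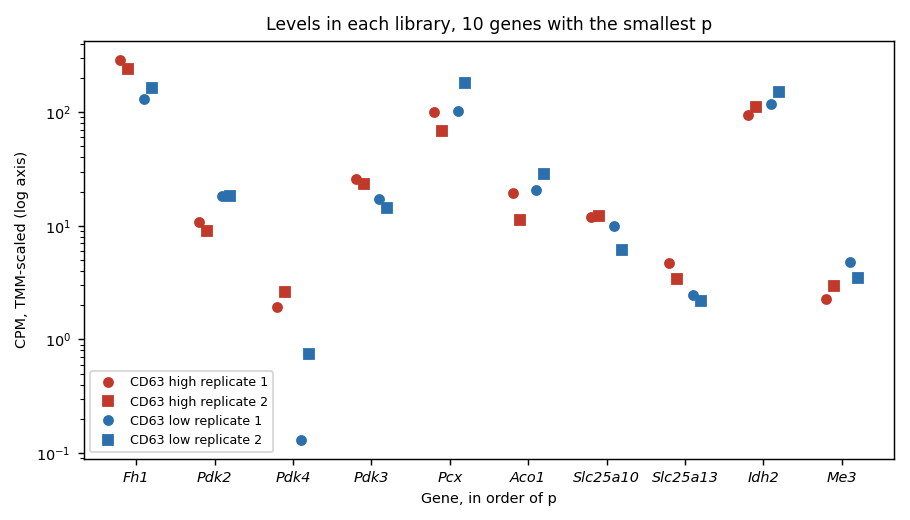
CPM (TMM-scaled, log axis) in each library for the 10 genes with the smallest p, in order of p, with red for CD63 high, blue for CD63 low, circles for replicate 1 and squares for replicate 2. Fh1 and Pdk2 show groups set apart from their replicates, whereas for Pcx and Aco1 a CD63 high and a CD63 low library are nearly level.

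The malate-aspartate shuttle moves electrons of cytosolic NADH into mitochondria through Mdh1 and Got1 in the cytosol, Got2 inside, and carriers for oxoglutarate-malate (Slc25a11) and aspartate-glutamate (Slc25a12 and Slc25a13). Mdh1 stood at 436 and 484 CPM in the CD63 high and 388 and 369 CPM in the CD63 low libraries. The groups did not overlap, yet the difference was small (a log2 ratio of 0.28, SE 0.19, edgeR adjusted p 0.555), with an interval from -0.14 to 0.70. The aminotransferases Got1 and Got2 and the carrier Slc25a11 were at 0.21, 0.06 and 0.08 (SE 0.19 to 0.21), and Slc25a11 shares 8.92% of its exon bases with Rnf167.

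The 2 aspartate-glutamate carriers lay on opposite sides of 0. Slc25a12, the main form per length, was at 37.2 and 34.4 against 35.8 and 51.1 CPM (a log2 ratio of -0.28, SE 0.23), and its groups overlapped. Slc25a13 had 148 and 95 counts in the CD63 high and 75 and 85 in the CD63 low libraries (4.72 and 3.43 against 2.47 and 2.18 CPM), a log2 fold change of 0.81 (SE 0.43, edgeR adjusted p 0.423). Slc25a13 thus took 19.7% and 16.1% of the pair's per-length level in the CD63 high and 11.8% and 7.62% in the CD63 low libraries, without overlap.

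The glycerol phosphate shuttle pairs cytosolic Gpd1 with the FAD-linked mitochondrial enzyme Gpd2, which is abundant in beta cells. Gpd2 stood at 104 and 79.0 CPM in the CD63 high and 85.5 and 115 CPM in the CD63 low libraries, and the groups overlapped (a log2 ratio of -0.13, SE 0.22). Gpd1 was at 35.6 and 25.5 against 27.8 and 37.0 CPM (a log2 ratio of -0.09, SE 0.25). Both genes were highest in CD63 low replicate 2 and lowest in CD63 high replicate 2, and Gpd2 kept 56.8 to 58.4% of their per-length level throughout. The exon bases that Gpd1 shares with Gm16537 came to 13%.

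Among the carriers that export intermediates, Slc25a1, which exports citrate for fatty acid synthesis, stood at 145 and 167 CPM in the CD63 high and 156 and 174 CPM in the CD63 low libraries (a log2 ratio of -0.08, SE 0.19). Slc25a10, the dicarboxylate carrier, was at 12.0 and 12.3 against 9.95 and 6.16 CPM, without overlap (a log2 ratio of 0.60, SE 0.31, edgeR adjusted p 0.411). Its value was 0.30 without CD63 low replicate 2 and 0.98 without CD63 low replicate 1.

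One library weighed on many of these values. CD63 low replicate 2 was the highest of the 4 libraries in CPM for 21 of the 40 genes (52.5%), against 29.2% of all tested genes. Among the genes for which it stood well above CD63 low replicate 1 were Pcx, Ogdh, Pdha1 and Idh2. Without it the median log2 fold change of the 40 genes was 0.02 in place of -0.09 and 14 of them, in place of 26, lay below 0. The median of all tested genes also moved, to 0.0355 in place of -0.01. In that fit Fh1 was at 1.04, Pdk4 at 4.08 and Pdk2 at -0.88. That fit leaves 1 CD63 low library, so its spread comes from the CD63 high libraries alone. Without that library fewer of the 40 genes lay below 0 than above it, while their median stayed below that of all tested genes. The share of all tested genes below 0 in that fit is not given here.

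**Figure D5:**
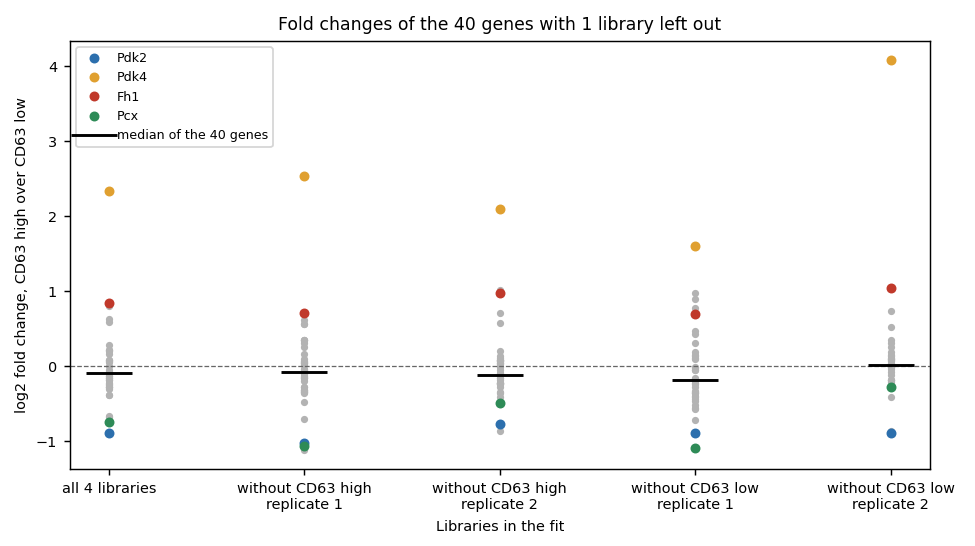
Log2 fold changes (CD63 high over CD63 low, y axis) of the 40 genes from edgeR with all 4 libraries and with each library left out, with Pdk2, Pdk4, Fh1 and Pcx coloured, the other genes in grey and a black bar at the median. The median moves from -0.09 to 0.02 without CD63 low replicate 2, and Pcx moves from -0.75 to -0.27. The median of all tested genes, not drawn, moves from -0.01 to 0.0355 without that library.

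Other genes of the pathway came from 4 further lists of 29 genes, of which 26 were tested. One rose and none fell, and the median log2 fold change was -0.05. The gene that rose was lactate dehydrogenase A (Ldha), which beta cells normally keep low and macrophages express, at 8.96 and 40.7 CPM in the CD63 high and 1.78 and 1.00 CPM in the CD63 low libraries (a log2 ratio of 4.17, SE 0.63, edgeR adjusted p 0.00698, and 2.70 without CD63 high replicate 2). The call was lost with limma-voom (adjusted p 0.0528), robust dispersion (0.0904) and library size only (0.0571). The CD63 high library with more Ldha also had the higher macrophage, delta, gamma and acinar marker sums, and the part of RNA from such cells was not tested. The smallest p in the other 3 lists belonged to the succinate dehydrogenase subunit Sdha (-0.41, SE 0.20, adjusted p 0.381), the pyruvate dehydrogenase phosphatase Pdp1 (-0.92, SE 0.39, adjusted p 0.304) and the citrate cleaving enzyme Acly (-0.78, SE 0.29, adjusted p 0.230). Acly stood at 1481 and 1113 against 1509 and 2949 CPM, and Sdha at 167 and 140 against 185 and 223 CPM, both highest in CD63 low replicate 2 as Pcx was. Pdp1, which reverses the action of the kinases, was at 2.84 and 6.07 against 8.20 and 8.57 CPM.

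The start regions of the 5 genes with the smallest p are shown so that kinases with fold changes on either side of 0 can be set beside the sequence. The RefSeq table of GRCm38.p6 held windows of 250 bases before to 50 bases after the start for 37 of the 40 genes, and for genes with 2 listed starts (Pdk2 and Pcx) the outermost is printed, though gene counts do not tell which start was used. In all 9 motifs were searched on both strands. Capitals mark 3 of them, the E-box CACGTG, the CCAAT box CCAAT and the GC box GGGCGG, written 5′ to 3′ along the gene, and these 3 were picked for display after the matches of all 9 had been seen.
Fh1 (chr1:175625586-175625885, minus strand): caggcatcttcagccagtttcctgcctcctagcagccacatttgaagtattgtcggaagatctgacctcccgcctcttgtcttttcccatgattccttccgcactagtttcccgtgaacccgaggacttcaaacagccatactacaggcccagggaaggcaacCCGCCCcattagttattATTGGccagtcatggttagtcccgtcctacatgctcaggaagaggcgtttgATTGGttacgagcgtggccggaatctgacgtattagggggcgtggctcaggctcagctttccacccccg
Pdk2 (chr11:95041322-95041621, minus strand): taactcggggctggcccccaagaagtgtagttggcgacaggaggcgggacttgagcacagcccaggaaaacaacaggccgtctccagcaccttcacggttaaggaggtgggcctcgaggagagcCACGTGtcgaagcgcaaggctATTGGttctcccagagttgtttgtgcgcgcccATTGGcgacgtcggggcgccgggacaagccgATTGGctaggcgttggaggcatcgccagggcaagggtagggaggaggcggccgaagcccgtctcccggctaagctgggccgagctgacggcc
Pdk4 (chr6:5496229-5496528, minus strand): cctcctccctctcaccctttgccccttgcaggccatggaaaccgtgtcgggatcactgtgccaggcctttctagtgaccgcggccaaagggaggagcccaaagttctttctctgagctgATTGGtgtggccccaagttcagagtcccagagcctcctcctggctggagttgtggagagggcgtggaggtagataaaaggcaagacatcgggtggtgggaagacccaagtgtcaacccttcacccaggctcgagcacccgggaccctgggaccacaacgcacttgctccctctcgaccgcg
Pdk3 (chrX:93832101-93832400, minus strand): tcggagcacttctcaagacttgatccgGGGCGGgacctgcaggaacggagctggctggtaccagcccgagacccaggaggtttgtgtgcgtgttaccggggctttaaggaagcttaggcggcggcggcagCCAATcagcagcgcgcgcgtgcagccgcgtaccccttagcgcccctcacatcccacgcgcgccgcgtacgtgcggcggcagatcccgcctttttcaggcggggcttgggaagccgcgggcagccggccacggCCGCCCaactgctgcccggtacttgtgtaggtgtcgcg
Pcx (chr19:4510222-4510521, plus strand): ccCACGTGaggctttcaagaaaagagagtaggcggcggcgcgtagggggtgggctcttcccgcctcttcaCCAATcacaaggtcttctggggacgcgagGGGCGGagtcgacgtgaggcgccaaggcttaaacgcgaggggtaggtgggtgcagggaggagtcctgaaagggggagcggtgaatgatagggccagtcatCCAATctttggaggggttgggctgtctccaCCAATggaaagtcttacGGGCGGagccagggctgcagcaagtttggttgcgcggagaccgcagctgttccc
The E-box, a site class bound by basic helix-loop-helix factors such as USF, was present in the Pdk2 and Pcx windows and in none of the other 3 shown. It occurred in windows of 5 genes of the list, namely Ogdh, Pcx, Pdk2, Slc25a1 and Slc25a13, in 14.3% of the 49 windows of the list and in 7.15% of all 32851 windows. The CCAAT box occurred in all 5 windows shown, in 59.2% of the list's and in 37.4% of all windows, and the GC box in those of Fh1, Pdk3 and Pcx, in 61.2% of the list's and 35.7% of all windows. The other 6 motifs matched few or no windows of the list and none of the 5 shown. The NRF1 motif was found for Dld and Sucla2 (4.08% of the list's and 4.60% of all windows) and the GABPA motif CCGGAAGT for Dlst (2.04% and 3.89%). The cyclic AMP response element TGACGTCA was found for Mdh2 and Ogdh (8.16% and 1.79%), in 4 windows, of which the 3 of Ogdh overlap each other. The ERR motif TCAAGGTCA (0.423% of all windows), the YY1 motif (0.633%) and the PPAR element (0.0396%) were found for none of the 37 genes. Because the 3 displayed motifs were selected on their matches, their shares in the list are a description of that selection, and all matches describe the letters only.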

How the data were processed

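Raw gene counts of 4 libraries were deposited, made with featureCounts 1.6.2 per the file headers (fragments of paired ends summed by gene name without regard to strand, multi-mapped reads not counted, Cell Ranger mm10 3.0.0 annotation). Per the submitters' processing notes STAR 2.6.0c, FastQC and Cell Ranger were also used, with no role or order given, and nothing used here states any trimming. Reads matching several genes or places were left out, which lowers genes with close copies, and 8 of the 40 genes share exon bases with another gene name. Amplified low-input libraries without molecular identifiers can count PCR copies as reads.

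Genes kept by filterByExpr of edgeR 4.0.16 (minimum count 10, minimum total 15), 13241 in all, were tested in R 4.3.3 by the quasi-likelihood functions glmQLFit and glmQLFTest after TMM scaling, CD63 high against CD63 low, with group as the only term and Benjamini-Hochberg adjustment over all of them. A standard error is the fold change on the log2 scale divided by the root of F. A call is an adjusted p under 0.05. The script was tested on simulated data with 200 changed genes. DESeq2 1.42.0 and limma 3.58.1 served among 15 alternatives. TPM were computed from the deposited counts and exon lengths. Values in every library are given for the 10 genes with the smallest p and the most abundant gene of each role, and further genes were named after their values were seen. One gene was taken out of the further pathway lists and their counts and is not reported here. Members and lists were chosen with earlier results of these data known. Within groups, counts differed by a chi-square of 37.3 and 73.7 per degree of freedom, far above sampling noise.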

Additional observations from a re-analysis of the deposited data

How the results depend on the processing

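The count of 0 called genes among the 40 changed with the settings, and the calls were few in each. In CD63 high cells 1 gene was higher with DESeq2 (Fh1), limma-voom (Fh1), at least 1 CPM in 2 libraries (Fh1) and the replicate block (Pdk4). In that order, these settings called 4.03%, 1.87%, 2.94% and 4.04% of all tested genes higher. With no filter on low counts 2 were higher (Fh1, Pdk4) and 2 lower (Pdk2, Pcx), beside 3.76% and 1.36% of all genes tested there. Whether the replicate numbers pair the samples is not stated. Deviations of same-numbered libraries from their group means correlated at -0.18 over genes, which cannot settle pairing with 2 libraries a group. The names of the deposited tables number the CD63 low libraries 2 and 3, where the titles followed here have 1 and 2. A block with crossed numbers, chosen after seeing the data, called 1 higher (Fh1) and 3 lower (Pdk2, Pcx and Aco1). It called 4.58% of all tested genes higher and 2.53% lower. Leaving out 1 library also changed the calls, in fits whose spread comes from 1 group alone. The causes were not tested. The 10 genes with the smallest p kept their sign in each of the 15 alternatives. Their groups did not overlap in CPM, and they were picked by p from the same 4 libraries. That they kept their sign was thus largely set in advance. Of the other pathway genes, 0 were higher with limma-voom, the robust dispersion and library size only, where Ldha had adjusted p of 0.0528, 0.0904 and 0.0571. Without a filter 2 were higher and 2 lower, with the replicate block 2 higher, and with crossed numbers 1 higher and 1 lower. These counts also moved with 1 library left out.

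The median log2 fold change of the 40 genes was -0.19 when scaled by total counts without insulin genes and -0.21 with the gene length trend removed, and -0.18 to 0.022 with 1 library left out. These scalings moved the median of all genes to -0.11 and -0.15, and it was -0.020 to 0.0355 with 1 library left out. Over all genes 331 higher and 38 lower calls became 534 and 152 with DESeq2, 66 and 1 with library size only, 690 and 250 without a filter and 535 and 81 with the replicate block. The most abundant gene of a role was the same for 8 of 9 roles without division by length.

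Genes near 0 changed sign. Scaled by total counts without insulin genes, Idh3b was at -0.015, Got2 at -0.038, Me1 at -0.030 and Slc25a11 at -0.017. With the length trend removed, Idh3b was at -0.046, Me1 at -0.030, Slc25a11 at -0.23, Mpc1 at -0.099 and Got1 at -0.035. Suclg1 was at 0.0064 with DESeq2 or its size factors and 0.017 with at least 1 CPM in 2 libraries. With 1 library left out, log2 fold changes that crossed 0 ran, for Gpd2 from -0.34 to 0.11, Slc25a12 from -0.52 to 0.017, Idh3g from -0.18 to 0.0090, Pdha1 from -0.57 to 0.093, Suclg1 from -0.088 to 0.082, Suclg2 from -0.36 to 0.091, Got2 from -0.044 to 0.18, Sucla2 from -0.28 to 0.063, Dlat from -0.44 to 0.00024, Idh3a from -0.20 to 0.066, Ogdh from -0.72 to 0.080, Slc25a11 from -0.0044 to 0.16, Dld from -0.34 to 0.015, Gpd1 from -0.35 to 0.15, Slc25a1 from -0.18 to 0.021 and Me2 from -0.16 to 0.049. Of these, 12 crossed 0 without CD63 low replicate 2.
With 27.7 to 39.0 counts per CPM, Pdk4, Me3 and Slc25a13 had few counts, and of the 40 genes only their intervals reached beyond 3-fold. The parts of depth and of spread between libraries in these widths were not separated.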
